A study of Homo sapiens with 6 samples.

Results

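The Wnt/beta-catenin pathway was followed through 10 of its feedback and R-spondin genes: LGR4, LGR5, RNF43, ZNRF3, AXIN2, NKD1, NOTUM, SP5, TCF7 and LEF1. They were chosen by name, as known feedback genes of the pathway or genes of its R-spondin branch, with earlier results of these data known. Each was found under its Ensembl identifier among the 19977 genes counted. All 10 had at least 10 counts in total over the libraries and entered the test, which covered 16505 genes. NCRM-1, a wild type human induced pluripotent stem cell (iPSC) line, was grown from single cells as aggregates in vertical wheel bioreactors, and bulk RNA of day 4 was sequenced. The 3 PEG and HS libraries came from E8, a defined iPSC maintenance medium, with 10 mg/ml polyethylene glycol (PEG) and 0.1 µg/ml heparin sodium salt (HS), and the 3 Control libraries came from E8. One passage of the labels describes the additives for all 6 libraries, and the treatment named for each library was followed. All cells had been kept in E8 on vitronectin and were dissociated with TrypLE. The labels speak of a single bioreactor for each medium, so that the vessel cannot be told apart from the medium, and the p-values measure the spread between samples that may come from one culture. The comparison asks how the additives relate to the transcripts of this pathway in cells meant to stay pluripotent.

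In the Wnt pathway, a Wnt ligand bound to Frizzled and LRP co-receptors stops the Axin-based destruction complex from marking beta-catenin for degradation, and beta-catenin then enters the nucleus and activates genes together with TCF and LEF factors. Some of the activated genes restrain the pathway again, among them AXIN2, NKD1, NOTUM, RNF43 and ZNRF3. R-spondins, secreted proteins, bind LGR receptors and remove RNF43 and ZNRF3 from the membrane, which leaves more Frizzled on the cell. In human pluripotent cells low Wnt activity goes with self-renewal, and strong activation leads toward primitive streak.

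The libraries held 26991279 to 36185138 counts, with overlapping ranges in the media, and the TMM scaling factors of edgeR were 0.994 to 1.006. The 11 pluripotency markers examined summed to 10600 to 10800 CPM (counts scaled to library size) in Control and 10500 to 10700 CPM in PEG and HS. Of these markers 5 were called higher in PEG and HS and 4 lower by the test described below, among them NANOG (log2 fold change 0.55, edgeR adjusted p = 6.55e-10) and POU5F1 (0.23, edgeR adjusted p = 3.2e-06) higher, and SOX2 (-0.59, edgeR adjusted p = 4.79e-10) and PODXL (-0.41, edgeR adjusted p = 3.19e-09) lower. Over all genes tested, 12.2% were called higher and 13.1% lower, and each count of markers called has to be read beside that share. Markers of other cell types differed as well. The 8 neuroectoderm markers were all called lower in PEG and HS and summed to 48.5 to 53.3 CPM there against 169 to 175 CPM in Control. Of 7 amnion and trophectoderm markers tested, 4 were called lower (5.52 to 5.91 against 15.2 to 16.2 CPM in sum), and CDX2 had no count in 4 of the 6 libraries. Among those called was HAND1, with 1 count in PEG and HS against 15 in Control, so it entered the test through Control alone. The 7 primitive streak markers summed to 2.49 to 3.30 CPM in Control and 2.91 to 3.43 CPM in PEG and HS, with 1 called lower. That was EVX1, from 1 count in PEG and HS against 12 in Control, so it too entered the test through Control alone. The 4 definitive endoderm markers tested summed to 4.02 to 4.56 CPM in Control and 3.01 to 3.26 CPM in PEG and HS, with none called, and SOX17 had no count in 4 libraries. Of 6 mesenchyme markers 1 was called higher and 2 lower (382 to 410 CPM in Control against 463 to 496 CPM in sum), and THY1, which pluripotent cells also express, made up most of that sum. In bulk RNA, fewer cells of a type and less RNA per cell cannot be told apart, and the part of these markers in the results below was not tested.

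Among the 10 genes, LGR4, AXIN2 and LEF1 fell in PEG and HS, NKD1 rose, and the remaining 6 did not pass the test. The fall of LGR4 was 1.71-fold, whereas the estimates for AXIN2, LEF1 and NKD1 were under 1.5-fold, with an interval for LEF1 that includes 1.5-fold. A gene was called where its adjusted p lay under 0.05 (quasi-likelihood test of edgeR, adjusted by Benjamini-Hochberg over all genes tested). By that rule 25.3% of all genes tested were called, 13.1% lower and 12.2% higher, so 4 calls in 10 genes is a share that has to be read against many small differences across the transcriptome. The median log2 fold change of the 10 genes was -0.25, and that of all genes was 0.003. This median lies between AXIN2 (-0.27) and LGR5 (-0.23). LGR5, SP5 and NOTUM had few counts and intervals that contain 0, and TCF7 (-0.02), ZNRF3 (-0.03) and RNF43 (-0.002) lay near 0. Libraries of the media did not overlap in 5 of the 10 genes, with 4 lower and 1 higher, where 39.3% of all genes did not overlap (19.8% lower and 19.5% higher). For a single gene, an exact permutation test of 3 libraries against 3 cannot give a two-sided p below 0.1.

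**Figure D1:**
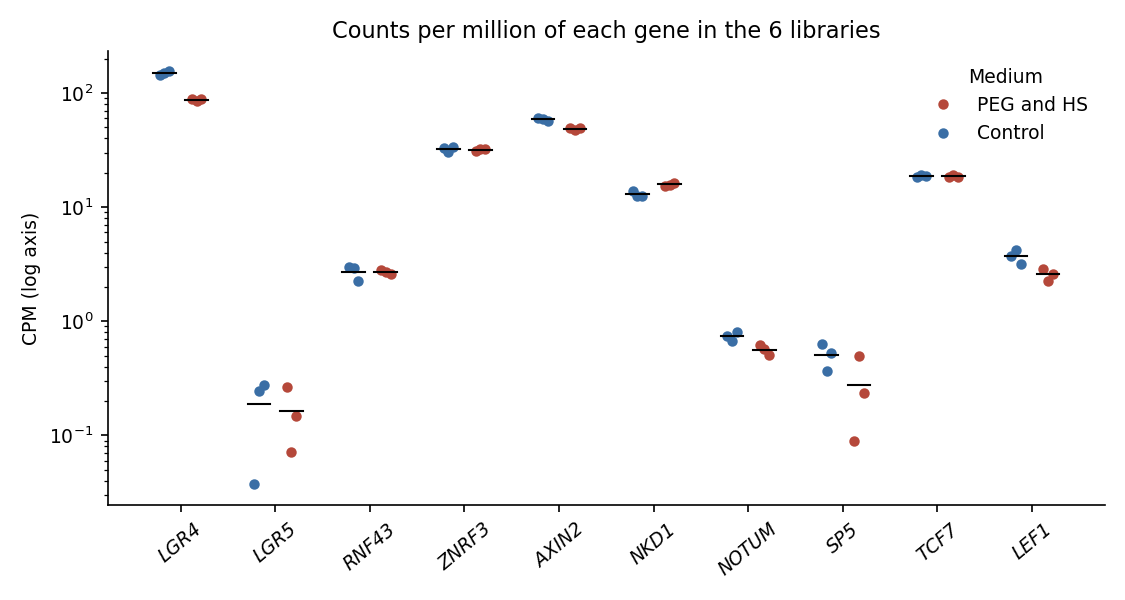
CPM of each of the 10 genes on a log axis, with 1 point for each library, Control in blue and PEG and HS in red, and a black line at the mean of 3 libraries. LGR4 and AXIN2 separate clearly, from 143.6 to 154.9 CPM against 85.2 to 88.6 CPM for LGR4, while RNF43, ZNRF3, TCF7, SP5 and LGR5 overlap between the media.

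The promoters of SP5 and LGR4 are shown as examples. SP5, a zinc finger repressor, is a textbook direct target of beta-catenin with few counts here. LGR4 changed most among the genes called. Both had estimates below 0 (log2 fold change -0.92 for SP5, not called, and -0.78 for LGR4). TCF and LEF factors bind words of the form CTTTG followed by 2 bases A or T. A word, here CTTTGAA or CTTTGAT or CTTTGTA or CTTTGTT, was searched on both strands in RefSeq promoter windows of 300 bases, 250 before and 50 after the start. The 250 bases before the start are printed 5′ to 3′ on the strand of the gene (GRCh38.p14), with any such word in capitals on whichever strand it lies. SP5 is at chr2:170715087-170715336 on the plus strand and LGR4 at chr11:27472791-27473040 on the minus strand.
SP5: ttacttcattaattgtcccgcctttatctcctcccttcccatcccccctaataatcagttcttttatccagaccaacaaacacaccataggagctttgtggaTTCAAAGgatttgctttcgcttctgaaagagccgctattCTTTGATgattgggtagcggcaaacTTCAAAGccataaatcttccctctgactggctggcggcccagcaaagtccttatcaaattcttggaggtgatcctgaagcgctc
LGR4: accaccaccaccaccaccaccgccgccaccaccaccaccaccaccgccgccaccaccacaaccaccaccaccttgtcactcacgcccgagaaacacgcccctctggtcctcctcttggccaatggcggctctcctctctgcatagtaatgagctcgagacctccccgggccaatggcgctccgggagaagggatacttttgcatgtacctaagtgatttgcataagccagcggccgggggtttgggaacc
The SP5 window holds 3 words, CTTTGAA on the opposite strand beginning 148 and 84 bases before the start and CTTTGAT on the strand of the gene beginning 109 bases before it. No such word is in the LGR4 window, whose GC content is 61.3% against 52.3% for SP5. Windows were at hand for 5 of the 10 genes, LEF1, TCF7, RNF43, SP5 and LGR4, with 7 windows in all. A word was found in 2 of these 7, the other being one of the TCF7 windows, and in 13.8% of all 35116 windows. AXIN2, NKD1, ZNRF3, LGR5 and NOTUM had no entry. A match is a description of letters and was not tested as a binding site, and the absence of a word says only that these letters are not in that window.

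LGR4 (ENSG00000205213, chromosome 11, 27365961 to 27472790 of GRCh38) encodes a multi-pass receptor for R-spondins and was the most abundant of the 10 genes. It was measured at 143.6, 150.7 and 154.9 CPM in Control and 88.6, 85.2 and 88.4 CPM in PEG and HS. Every PEG and HS library lay far below every Control library, and the gap between the media was larger than the whole range within either. The mean was 149.7 ± 5.72 CPM in Control (SD, n = 3) and 87.4 ± 1.93 CPM with the additives (SD, n = 3), a log2 fold change of -0.78 (SE 0.0341, 95% interval -0.85 to -0.70, edgeR adjusted p = 1.88e-10). LGR4 was the only one of the 10 genes called with a change over 1.5-fold. Across all genes, 3.6% were called lower and 0.836% higher with a change over 1.5-fold. When the difference was tested against 1.5-fold in place of no change, LGR4 alone of the 10 genes was called. By that test 234 of all 16505 genes were called lower and 30 higher.

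LGR5 (ENSG00000139292, chromosome 12, 71439798 to 71586310), the receptor of the same family that marks stem cells of the intestine, was close to undetected. Its counts were 1, 8 and 10 in Control and 9, 2 and 5 in PEG and HS. The replicates of either medium spread over most of the range of the other, and 16 counts against 19 cannot resolve even a 1.5-fold difference (ratio of summed counts 0.845, exact 95% interval 0.406 to 1.73 for counting error only). The log2 fold change was -0.23 with a 95% interval of -1.63 to 1.17 (edgeR adjusted p = 0.841). Read per length, in TPM (CPM divided by exon length and rescaled to the same total), LGR4 held 99.2 ± 0.297% (SD, n = 3) of the summed LGR4, LGR5 and LGR6 level in Control and 98.6 ± 0.184% in PEG and HS. That summed receptor level was 92.1 ± 3.82 TPM in Control and 55.1 ± 1.41 TPM in PEG and HS.

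RNF43 and ZNRF3, the membrane ubiquitin ligases that R-spondin and LGR receptors take off the cell surface, did not pass the test. ZNRF3 (ENSG00000183579, chromosome 22, 28883572 to 29057488) was at 33.2, 30.6 and 33.9 CPM in Control and 31.2, 32.2 and 32.1 CPM in PEG and HS. The 3 PEG and HS values fell inside the range of the Control values. Its log2 fold change was -0.03 (SE 0.0485, edgeR adjusted p = 0.687), with a 95% interval of -0.14 to 0.07. RNF43 (ENSG00000108375, chromosome 17, 58353676 to 58417595) was at 2.97, 2.92 and 2.25 CPM in Control and 2.79, 2.73 and 2.57 CPM in PEG and HS. Its media overlapped as well, with a log2 fold change of -0.002 and a wider 95% interval of -0.33 to 0.32 (edgeR adjusted p = 0.998). RNF43 shares 68.2% of the 31-base words of its transcripts with other genes, most with a gene that overlaps it on the same strand (ENSG00000285897). That gene had 53 counts over all libraries against 514 for RNF43, so the level of RNF43 depends on how shared reads were assigned.

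Per length, ZNRF3 made up 91.5 ± 0.426% (SD, n = 3) of the summed level of the ligases in PEG and HS and 91.5 ± 1.45% in Control. The sum was 19.7 TPM in both media. The ratio of LGR4 to ZNRF3 in TPM was 4.76, 5.42 and 5.03 in Control and 3.12, 2.91 and 3.03 in PEG and HS. This ratio was formed after the values of both genes were known and is given as a description.

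AXIN2 (ENSG00000168646, chromosome 17, 65528563 to 65561648), the inducible Axin scaffold of the destruction complex and the most used readout of Wnt activity, was lower in PEG and HS. It was at 60.4, 59.6 and 57.3 CPM in Control and 49.2, 47.8 and 49.7 CPM in PEG and HS. The ranges did not touch, and the difference was small beside that of LGR4. From 59.1 ± 1.60 CPM (SD, n = 3) in Control it fell to 48.9 ± 0.987 CPM in PEG and HS, a log2 fold change of -0.27 (SE 0.0369, 95% interval -0.35 to -0.19, edgeR adjusted p = 5.59e-05), or 1.21-fold. AXIN1, the scaffold that does not depend on Wnt activity, was at 69.4 ± 0.127 CPM in Control (SD, n = 3) and 67.3 ± 1.20 CPM in PEG and HS, and it was not called (log2 fold change -0.04, 95% interval -0.11 to 0.02, edgeR adjusted p = 0.361). The ratio of AXIN2 to AXIN1 in TPM was 1.24 ± 0.0347 in Control and 1.05 ± 0.0103 (SD, n = 3) in PEG and HS. With the length of the Ensembl canonical transcript in place of the summed exon length, AXIN2 held 42.6% of the TPM of both scaffolds in Control and 38.7% in PEG and HS, where it held 55.3% and 51.3% before. AXIN2 shares 25.0% of its words with other genes, most with a gene that overlaps it on the same strand and had 3 counts in all.

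NKD1 (ENSG00000140807, chromosome 16, 50548396 to 50649249), a Naked cuticle protein that binds Dishevelled and restrains the pathway, was the only one of the 10 genes to rise. It was at 13.8, 12.4 and 12.5 CPM in Control and 15.5, 15.8 and 16.3 CPM in PEG and HS. All PEG and HS libraries lay above all Control libraries. The log2 fold change was 0.30 (SE 0.0633, 95% interval 0.16 to 0.44, edgeR adjusted p = 0.00252), with means of 12.9 ± 0.757 CPM (SD, n = 3) for Control and 15.9 ± 0.421 CPM for PEG and HS. Its relative NKD2 rose too (7.44 ± 0.632 CPM in Control against 9.55 ± 0.630 CPM, log2 fold change 0.36 with an SE of 0.0851, edgeR adjusted p = 0.00534). AXIN2 and NKD1, which both restrain Wnt signalling inside the cell, moved in opposite directions.

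**Figure D2:**
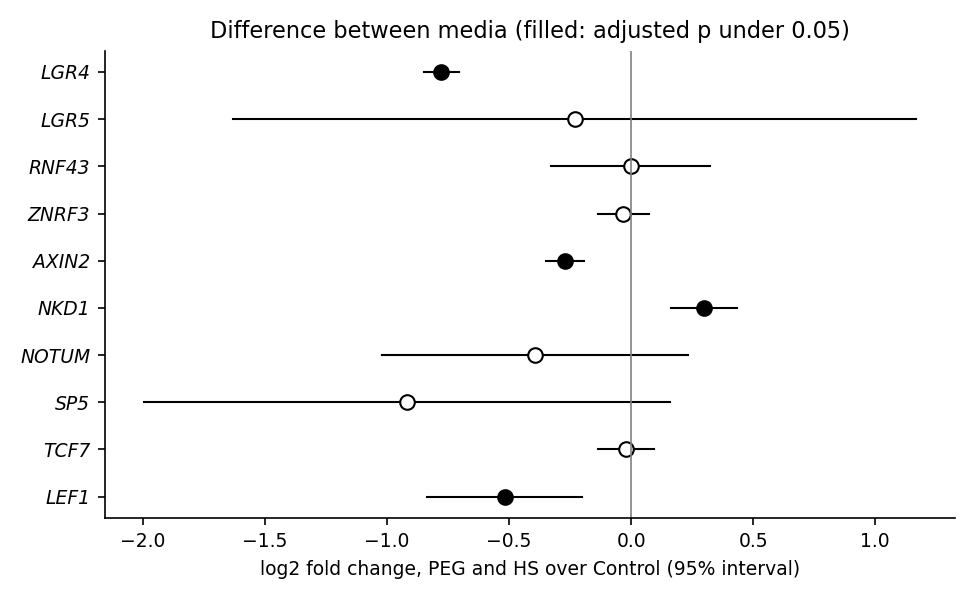
Log2 fold change of PEG and HS over Control for the 10 genes, with 95% intervals from edgeR as lines and filled points where the adjusted p was under 0.05. LGR4 lies at -0.78 and NKD1 at 0.30 with narrow intervals, while LGR5 and SP5, with few counts, have intervals that span over 2 units.

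NOTUM (ENSG00000185269, chromosome 17, 81952507 to 81961840) encodes a secreted enzyme that strips the lipid from Wnt ligands. It was at 0.741, 0.677 and 0.804 CPM in Control and 0.623, 0.566 and 0.502 CPM in PEG and HS, from 71 and 54 counts in all. The libraries did not overlap, with PEG and HS lower, yet the difference was not called (log2 fold change -0.39, 95% interval -1.02 to 0.23, edgeR adjusted p = 0.37). Absence of overlap was common here, at 39.3% of all genes.

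SP5 (ENSG00000204335, chromosome 2, 170715337 to 170718078), whose promoter is printed above, was barely expressed. Its counts were 17, 12 and 19 in Control against 3, 14 and 8 in PEG and HS. The replicates of PEG and HS were scattered, with the highest above the lowest Control library in CPM (0.496 against 0.369). The log2 fold change was -0.92 with an SE of 0.505 (edgeR adjusted p = 0.213), and the 95% interval of -2.00 to 0.16 contains 0. This value rests on single libraries: it was -0.49 without PEG and HS replicate 1 (edgeR adjusted p = 0.539) and -1.61 without PEG and HS replicate 2, where it was called (edgeR adjusted p = 0.0475).

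Of the nuclear factors among the 10 genes, LEF1 fell and TCF7 was not called. TCF7 (ENSG00000081059, chromosome 5, 134114681 to 134151865) was at 18.4, 19.3 and 18.8 CPM in Control and 18.4, 19.2 and 18.2 CPM in PEG and HS. The media were interleaved, and the 95% interval of the log2 fold change was -0.14 to 0.10 (edgeR adjusted p = 0.824). An exon of SKP1 on the other strand overlaps TCF7, and the use of strand in counting is not given in the sources used here. LEF1 (ENSG00000138795, chromosome 4, 108047545 to 108168956), an activating factor whose gene is itself a target of beta-catenin, was at 3.74, 4.22 and 3.16 CPM in Control and 2.88, 2.27 and 2.57 CPM in PEG and HS. All 3 PEG and HS libraries were below the lowest Control library, with a narrow gap. LEF1 fell by 0.52 on the log2 scale (SE 0.149, 95% interval -0.84 to -0.20, edgeR adjusted p = 0.0187). With 1 library left out the log2 fold change was between -0.63 and -0.41. The call was lost without PEG and HS replicate 2 (edgeR adjusted p = 0.0728) and without Control replicate 2 (edgeR adjusted p = 0.0977).

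In both media these factors were minor members of their family. TCF7L1, the family member that mainly represses targets in pluripotent cells, held 76.2 ± 0.665% (SD, n = 3) of the summed TPM of the TCF and LEF genes in Control and 79.7 ± 0.469% in PEG and HS. The share of LEF1 was 1.01 ± 0.154% in Control and 0.743 ± 0.0954% in PEG and HS. That of TCF7 was 2.73 ± 0.117% in Control and 2.85 ± 0.049% in PEG and HS, and that of TCF7L2 was 20.1 ± 0.486% in Control and 16.7 ± 0.434% in PEG and HS. With the length of the Ensembl canonical transcript, the share of TCF7 was 5.37% in Control and 5.62% in PEG and HS. The level of TCF7L1 did not pass the test (log2 fold change -0.02, edgeR adjusted p = 0.742), whereas TCF7L2 fell from 92.4 ± 0.766 CPM in Control to 72.6 ± 1.06 CPM (log2 fold change -0.35 with an SE of 0.0306, edgeR adjusted p = 5.94e-07).

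**Figure D3:**
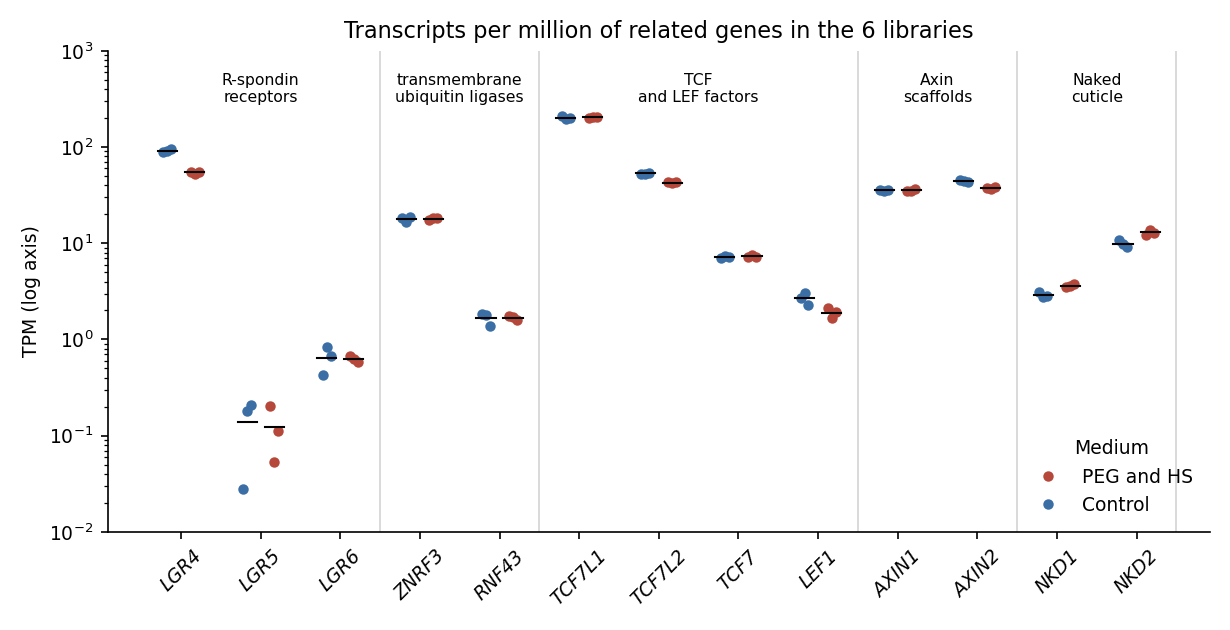
TPM, on a log axis, of the R-spondin receptors, the ubiquitin ligases, the TCF and LEF factors, the Axin scaffolds and the Naked cuticle genes, with 1 point for each library and a black line at the mean. LGR4, TCF7L2 and AXIN2 lie lower in PEG and HS, NKD1 and NKD2 lie higher, and LGR5 and LGR6 stay under 1 TPM in both media.

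The order of the 10 genes by TPM was the same in both media: LGR4, AXIN2, ZNRF3, TCF7, NKD1, LEF1, RNF43, NOTUM, SP5 and LGR5. LGR4 led with 91.3 ± 3.62 TPM (SD, n = 3) in Control and 54.4 ± 1.35 TPM in PEG and HS. AXIN2 followed with 44.1 ± 1.08 TPM in Control and 37.2 ± 0.890 TPM in PEG and HS. LGR5 came last with 0.139 ± 0.0969 TPM in Control and 0.123 ± 0.0747 TPM in PEG and HS. Neighbours whose libraries overlapped were LEF1 and RNF43, NOTUM and SP5, and SP5 and LGR5 in PEG and HS, and NKD1 and LEF1 and NOTUM and SP5 in Control. TPM rests on the summed exon length in GENCODE 44, and with the length of the Ensembl canonical transcript, a choice added after the values were seen, TCF7 ranked above ZNRF3 in both media and LEF1 above NKD1 in Control.

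The ligands of the LGR receptors were examined as well. RSPO4 was at 14.5, 11.0 and 12.3 CPM in Control and 12.0, 13.6 and 13.3 CPM in PEG and HS. It did not pass the test (log2 fold change 0.05, 95% interval -0.14 to 0.24, edgeR adjusted p = 0.752). It held 94.1 ± 0.977% (SD, n = 3) of the summed R-spondin TPM in Control and 96.7 ± 0.959% in PEG and HS. Summed over 3 libraries, RSPO1 had 24 counts in Control against 8 in PEG and HS, RSPO2 had 48 against 32 and RSPO3 had 43 against 27. No PEG and HS library reached the lowest Control library in CPM for RSPO1 or RSPO2, yet none of the R-spondins was called (edgeR adjusted p = 0.0851 for RSPO1, 0.307 for RSPO2 and 0.265 for RSPO3). Libraries of 19.8% of all genes lay lower in PEG and HS without overlap. Of the 9 R-spondin and co-receptor genes listed, 2 were called lower and 0 higher, a share close to the 25.3% called over all genes. These were KREMEN2 (log2 fold change -0.39, edgeR adjusted p = 0.0234) and KREMEN1 (log2 fold change -0.25, edgeR adjusted p = 0.0487), transmembrane proteins that take LRP co-receptors off the surface together with Dickkopf. With any 1 library left out 0 or 1 gene of this list was called lower, and with DESeq2 0. Over all genes, 1661 to 1938 were called lower with a library left out and 1776 with DESeq2, against 2157 otherwise. LRP5 and LRP6, the co-receptors themselves, had log2 fold changes of 0.05 and -0.03 and were not called.

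Of the 17 destruction complex and Dishevelled genes, 5 were called lower and 2 higher, where 13.1% of all genes were lower and 12.2% higher, with a median log2 fold change of -0.06 against 0.003 for all genes. CTNNB1, which encodes beta-catenin, was at 531.5 CPM in Control and 510.8 CPM in PEG and HS, a difference that was not called (log2 fold change -0.06, SE 0.0254, edgeR adjusted p = 0.115). APC, a scaffold of the complex, rose (log2 fold change 0.28, SE 0.0393, edgeR adjusted p = 8.8e-05), as did CSNK1A1, a priming kinase (0.08, edgeR adjusted p = 0.0337). APC2 fell from 3.46 ± 0.227 CPM (SD, n = 3) in Control to 1.69 ± 0.222 CPM (log2 fold change -1.03, edgeR adjusted p = 0.000138). FBXW11, which brings phosphorylated beta-catenin to its ubiquitin ligase, fell by 0.38 on the log2 scale (edgeR adjusted p = 1.07e-06), and CSNK1E by 0.14 (edgeR adjusted p = 0.00337). With any 1 library left out, 1 gene of this list was called higher, and 3 were called lower without PEG and HS replicate 1. Over all genes, 1453 to 1751 were called higher with a library left out, against 2016 with all libraries. Without PEG and HS replicate 1, 1661 were called lower, against 2157.

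Among the 14 nuclear partners and corepressors, 5 were called lower and 3 higher (13.1% and 12.2% of all genes), with a median log2 fold change of -0.08. Beside TCF7L2, BCL9L, a coactivator that ties beta-catenin to Pygopus, fell from 183.9 ± 4.42 CPM (SD, n = 3) in Control to 146.4 ± 5.31 CPM (log2 fold change -0.33, edgeR adjusted p = 1.89e-06). Of the 5 Groucho family genes listed, TLE3 (-0.31, edgeR adjusted p = 1.46e-05) and TLE4 (-0.26, edgeR adjusted p = 9.94e-05) fell, whereas TLE1 (0.24, edgeR adjusted p = 2.94e-05) and TLE2 (0.24, edgeR adjusted p = 0.0376) rose and TLE5 was not called (-0.03, edgeR adjusted p = 0.55). The count of higher genes was 1 without PEG and HS replicate 2 and without Control replicate 2. Over all genes these refits called 1742 and 1474 higher, against 2016 with all libraries.

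Of 17 other known beta-catenin targets 15 had enough counts to be tested, and 5 were called lower and 2 higher, beside 13.1% lower and 12.2% higher over all genes. The median log2 fold change of the list was -0.16. TNFRSF19, a receptor of the tumour necrosis factor family, was at 4.71, 4.46 and 4.68 CPM in Control and 0.860, 0.779 and 0.798 CPM in PEG and HS, a log2 fold change of -2.50 (SE 0.153, edgeR adjusted p = 8.94e-09). DKK1, a secreted inhibitor of LRP co-receptors, had 69 counts in Control against 24 in PEG and HS, a log2 fold change of -1.50 (SE 0.431, edgeR adjusted p = 0.0186). EVX1, a homeobox gene of the primitive streak, was called from 1 count in PEG and HS against 12 in Control (ratio 0.0836, exact 95% interval 0.00196 to 0.565 for counting error only, edgeR adjusted p = 0.0392). It entered the test through its Control counts alone and is also the primitive streak marker called above. The higher genes were NKD2, given above, and BAMBI, a decoy receptor of the TGF-beta family (log2 fold change 0.29, SE 0.0607, edgeR adjusted p = 0.00226). The count of lower genes was 2 without PEG and HS replicate 1 and without Control replicate 2. Over all genes these refits called 1661 and 1777 lower, against 2157 with all libraries.

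Of the 4 genes for acylation, secretion and inactivation of Wnt ligands, 1 was called, a share close to the 25.3% called over all genes. This was WLS, the carrier that brings Wnt proteins to the cell surface. It was at 8.16 ± 1.46 CPM (SD, n = 3) in Control and fell to 4.73 ± 0.252 CPM (log2 fold change -0.77 with an SE of 0.118, edgeR adjusted p = 0.000166). PORCN, which attaches the lipid that NOTUM removes, had a log2 fold change of 0.08 (edgeR adjusted p = 0.49).

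**Figure D4:**
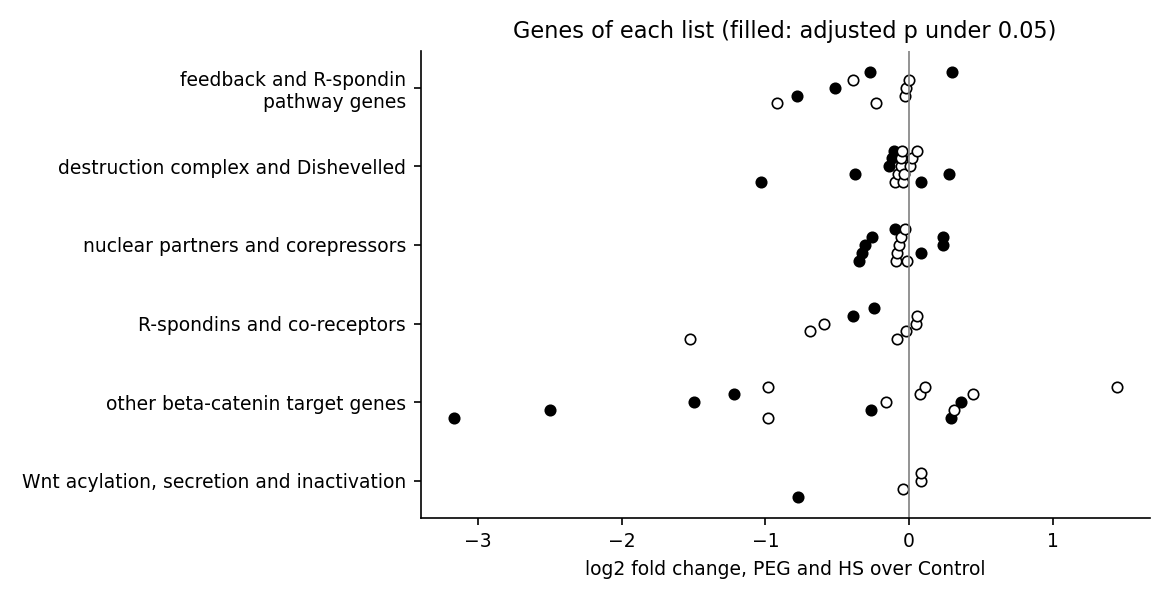
Log2 fold change of PEG and HS over Control for each tested gene of the 10 feedback and R-spondin pathway genes and of the 5 other pathway lists, with 1 point for each gene, filled where the edgeR adjusted p was under 0.05. Most genes of the destruction complex and the nuclear partners lie near 0, while the targets spread widely. Many of the outlying targets rest on few counts: EVX1, the lowest point, on 13, ASCL2 on 34, TBXT and MSX1 on 45 each, DKK1 on 93 and MSX2 on 111. TNFRSF19 had 519.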

How the data were processed

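Stranded mRNA libraries of 6 samples were sequenced. According to the labels and methods, the authors trimmed reads with Trim Galore 0.6.7, mapped them to GRCh38 with STAR 2.6.1 and deposited raw counts per gene. The counting tool and its use of strand are not given in the sources used here. Of 19977 identifiers, 19916 matched GENCODE 44. Genes with at least 10 counts in total were compared with edgeR 4.0.16 (R 4.3.3, TMM, glmQLFit and glmQLFTest, no covariate), where the study used DESeq2. Each SE is the size of the log2 fold change divided by the root of F. Fits were tested on simulated counts.

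The genes, lists and promoter words were chosen with earlier results of these data known. All 10 genes are named, then the R-spondins and, from each list, up to 3 called genes that changed most each way; any further gene was picked with its values known. Alternatives were DESeq2 1.42.0, limma-voom (limma 3.58.1), other normalizations, filters and thresholds, a replicate block and each library left out. A planned comparison of protein sequences was not made. Within each medium, replicates did not agree within sampling noise (chi-square divided by degrees of freedom, 2.61 to 3.60).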

Additional observations from a re-analysis of the deposited data

How the results depend on the processing

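The 10 genes were refitted under other tests, normalizations and filters, with the replicate block and with each library left out, which gave 145 values. Of these, 133 kept direction and side of the 0.05 limit, 2 lost the call (both LEF1), 1 gained it (SP5) and 9 changed sign, all in genes not called. RNF43 turned to 0.0195 with limma-voom, 0.0074 with library size alone and 9e-04 with the replicate block, and it ranged from -0.128 to 0.0608 with a library left out, ZNRF3 from -0.0786 to 7e-04 and LGR5 from -0.78 to 0.15. The cause was not tested. LGR4, AXIN2 and NKD1 stayed called in all 15 refits each, with log2 fold changes of -0.81 to -0.75, -0.29 to -0.26 and 0.27 to 0.34.

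With a library left out, 1 of the 10 genes was called higher and 2 to 3 lower. Over all genes, 1453 to 1751 were then called higher and 1661 to 1938 lower, against 2016 and 2157 with all libraries. Tested against 1.5-fold, 0 of the 10 genes were called higher and 1 lower, and over all 16505 genes 30 higher and 234 lower. For the other lists, leaving out a library gave 1 gene higher and 3 to 5 lower in the destruction complex list, 1 to 2 higher among nuclear partners, 0 to 1 lower among R-spondins and co-receptors and 2 to 5 lower among other targets. The R-spondin list had 0 lower genes with DESeq2 and 1 each with limma-voom and library size alone. Over all genes these settings called 1776, 2162 and 2027 lower. The destruction complex list had 1 higher with upper quartile normalization, where 1795 were called higher over all genes. The other targets had 2 lower with at least 1 CPM in 3 libraries, where 13605 genes were tested and 2306 called lower.

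With the replicate number as a block, 1 of the 10 genes was called higher and 3 lower, as without it, and over all genes 2187 higher and 2257 lower against 2016 and 2157. Whether the numbers pair the libraries is not settled by these values. Deviations of same-numbered libraries correlated at only 0.0052, 0.0137 and 0.00392, while 4 of the 6 libraries correlated best with their own number. Depth limits LGR5, SP5 and NOTUM, whose intervals cannot exclude a 1.5-fold change, and the interval of LEF1 also includes it.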
